A study of Mus musculus with 5 samples.

Results

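Replication-dependent histone genes encode the linker histone H1 and the core histones H2a, H2b, H3 and H4, and 67 protein-coding genes of this kind were followed through ribosome profiling of mouse embryonic stem cells (mESCs). They were chosen by symbol, as the protein-coding genes of the clusters Hist1 to Hist4, out of 21896 protein-coding gene symbols in the deposited table, and the transcript with the highest level stood for each gene. They comprised 6 H1, 18 H2a, 18 H2b, 12 H3 and 13 H4 genes. Chromosome 13 carried 54 of them, chromosome 3 carried 10, chromosome 11 carried 2 and chromosome 6 carried 1, and 63 transcripts had 1 exon. All 67 passed the filter of 1 CPM (counts scaled to library size) in at least 1 library.

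Ribosome profiling sequences the mRNA fragments that ribosomes protect from nuclease. There were 5 libraries of 2 methods. The 3 standard libraries came from ribosomes pelleted through a 30% sucrose cushion. The 2 AHARIBO libraries came from ribosomes captured on beads through nascent chains that carried L-azidohomoalanine (AHA), a methionine analogue, linked to biotin through 50 µM of a click reagent. The cells of all libraries, at 80% confluence, received cycloheximide, which halts translation elongation, shortly before harvest, and the digestion buffer contained sBlock, a reagent that keeps nascent chains on ribosomes. The label untreated therefore covers cells exposed to cycloheximide. In both methods RNase I (1.3 U, 45 min) trimmed the mRNA to protected fragments, of which those of 25 to 35 nt were sequenced. In the study's general workflow cells are depleted of methionine, given AHA and treated with sBlock before AHARIBO profiling. The study's section on profiling names cycloheximide alone as a treatment of the cells. No AHA dose was stated for the profiling libraries. The labels number the libraries as replicates without saying that they came from separate cultures, and the study's text describes replicates as independent without saying in what. The p-values measure the spread between these libraries, which may be technical.

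Summed over transcripts, the counts were 6403651 to 11150527 per library after removal of duplicates and 11399553 to 21324764 with duplicates. A read that matches several transcripts can be counted more than once in these sums, so they are not library depths. All 10 pluripotency markers listed, led by Pou5f1 at 214 to 276 CPM, were above 1 CPM in every library. Their summed level was 1504 to 1598 CPM in the standard and 1341 to 1467 CPM in the AHARIBO libraries. Of 6 neural markers 2 reached 1 CPM in every library, with Tubb3 the highest at 31.7 to 36.8 CPM, and their sum was 41.4 to 42.6 CPM in the standard and 37.6 to 38.2 CPM in the AHARIBO libraries. Of 6 fibroblast markers 1 reached 1 CPM in every library and 1 was at 0 in all, with sums of 3.86 to 5.15 CPM against 4.11 to 4.39 CPM. None of 6 mesoderm and endoderm markers reached 1 CPM in every library, and their sums were 3.20 to 4.92 CPM against 2.63 to 3.60 CPM.

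Core histones form the octamer around which DNA winds, and H1 binds the linker DNA between octamers. Cells make these proteins mainly in S phase, from many gene copies, and their mRNAs end in a conserved stem-loop in place of a poly(A) tail. The stem-loop is bound by SLBP, which takes part in the processing, translation and decay of the mRNA. Replication-independent variants such as H2afz and H3f3a are encoded elsewhere by polyadenylated mRNAs.

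The stem-loops of 3 genes are shown because they mark these mRNAs as a family, with the 4 bases of the loop in capitals. They were read from the GRCm38 transcripts (Gencode M21) after the stop codon: Hist1h3b at chr13:23752820-23752835 on the plus strand, Hist1h4h at chr13:23531458-23531473 on the plus strand and Hist1h3f at chr13:23544932-23544947 on the plus strand.
Hist1h3b: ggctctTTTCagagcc
Hist1h4h: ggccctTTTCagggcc
Hist1h3f: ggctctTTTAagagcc
The first form was found in 26 members, the second in 7 and the third in 6. The histone stem-loop consensus, searched on the sense strand, was found after the stop codon in 46 of the 67 members. Some of the others, as Hist1h2ai, Hist1h3h and Hist1h4k, have 0 nt annotated after the stop codon, so none could be found there. Some annotated transcripts run on past the stem-loop, by 365 nt in Hist1h3f and 2445 nt in Hist4h4. Across all 134952 transcripts searched, 204 (0.151%) held it anywhere.

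The 13 H4 genes encode 1 identical protein, so their coding sequences differ at synonymous positions alone, while their annotated transcripts run from 312 to 2863 nt. The 30 nt shown for H4, about the length of a ribosome footprint, begin 12 nt before the codon of the internal methionine at position 85, counted from the initiator. Capitals mark bases that differ from the sequence most H4 genes have. The windows lie in the coding exons at chr13:23760888-23760917 (minus strand) for Hist1h4a, chr13:21812024-21812053 (plus) for Hist1h4m, chr13:23581842-23581871 (plus) for Hist1h4d, chr3:96263035-96263064 (minus) for Hist2h4 and chr6:136804110-136804139 (minus) for Hist4h4.
Hist1h4a: accgtcaccgccatggacgtggtctacgcg
Hist1h4m: acTgtcaccgccatggacgtggtctacgcg
Hist1h4d: accgtcaccgccatggacgtTgtctacgcg
Hist2h4: accgtcaccgcTatggaTgtggtGtacgcT
Hist4h4: acGgtTacGgcTatggacgtggtGtacgcg
The first sequence was identical in 8 H4 genes and the second in 2, whereas the last 3 were each found in 1 gene. A read from the first window therefore cannot be assigned to 1 of the 8 genes by its sequence.

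H2b was similar. The corresponding windows around the first internal methionine, at position 60 (61 in Hist1h2ba), are shown because Hist2h2be and Hist2h2bb stand out in the values given further on. They lie at chr13:22043395-22043424 (plus) for Hist1h2bj, chr3:96221331-96221360 (plus) for Hist2h2be, chr3:96269917-96269946 (plus) for Hist2h2bb and chr13:23933959-23933988 (minus) for Hist1h2ba.
Hist1h2bj: tcctccaaggccatgggcatcatgaactcg
Hist2h2be: tcGtccaaggccatgggcatcatgaactcg
Hist2h2bb: tcAtcTaaggcTatgggAatcatgaaTtcC
Hist1h2ba: tcctccaaggccatgAgcatcatgaactcC
The first window was present in 13 H2b genes and in 19 transcripts, and the second in 2 H2b genes.

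Over whole transcripts, with the parts outside the coding sequence included, 66 of the 67 members shared at least 1 window of 30 nt with another member. The exception was Hist1h1t, the testis form of H1. In each core class all members were linked to each other through shared windows of these transcripts. The median member had 86.5% of its coding windows in another gene as well, and 14 members had every coding window shared. By class the median was 17% for H1, 90.8% for H2a, 86.5% for H2b, 90.8% for H3 and 78.4% for H4. A few core genes were largely distinct: Hist4h4 shared 1.06% of its coding windows, Hist1h2aa 12.2%, Hist2h4 13.8% and Hist2h2be 19.9%. Distinct proteins numbered 6 for H1, 9 for H2a, 11 for H2b, 3 for H3 and 1 for H4.

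The deposited counts of some copies were so close that the same reads appear to be counted in each. Hist2h3c1 and Hist2h3c2, which encode H3 and share all coding windows, held 11984 and 11983 reads with duplicates in standard replicate 1. In AHARIBO replicate 1 they held 9089 and 9087. Over the 5 libraries they differed by 1 to 3 reads, where independent counts of this size would differ by a Poisson SD of 127 to 155. Values of members of a class are therefore not separate measurements, and a sum over members counts many reads more than once. Not every pair with identical coding sequences had equal counts, as for Hist2h2aa1 and Hist2h2aa2. In H2a and H2b a median of 60.5% and 61.8% of coding windows lay in more than 10 transcripts, against 28.3% for H3, 19.1% for H4 and 0 for H1. STAR, the aligner named in the methods with default settings, discards reads with more than 10 alignments by default, and how this affected the H2a and H2b counts was not tested.

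H3 genes had the highest levels in these counts, in which the value of a gene can include reads shared with other copies. How far shared or discarded reads affected the order of genes and classes was not tested. Per kb of transcript, Hist1h3h had 659 ± 77.6 CPM per kb (SD, n = 3) in the standard libraries and 504 in the mean of the 2 AHARIBO libraries, and ranked 1 of the 21895 highest transcripts of protein-coding genes by its mean over all libraries. Hist1h3i ranked 2 with 652 ± 67.1 and 504 CPM per kb, and the H4 gene Hist1h4k ranked 3 with 566 ± 46.2 and 439 CPM per kb. Hist1h3h and Hist1h3i differed by less than their SD, and the annotated transcripts of all 3 genes hold the coding sequence alone. Of the H2b genes, Hist2h2bb was highest with 325 ± 41.9 and 277 CPM per kb, and of the H2a genes Hist2h2aa2 and Hist2h2aa1 had 275 ± 39.2 and 272 ± 36.8 CPM per kb in the standard libraries. Hist1h1a led H1 with 213 ± 22.1 and 194 CPM per kb. Genes with long annotated transcripts come out low on this scale: Hist1h1d, at 7425 nt, had 27.6 ± 4.07 CPM per kb although its coding sequence is 666 nt.

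In CPM, not scaled to length, the lowest members were Hist1h1t, at 6.29 to 8.19 CPM over the 5 libraries, and Hist1h2aa, at 4.38 to 7.46 CPM. Both are known from the male germ line. The third germ-line form, Hist1h2ba, stood higher at 38.9 to 62.2 CPM, and it shared 44.5% of its coding windows with other genes.

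In the H3 class every gene was lower in both AHARIBO libraries than in all standard libraries. Hist1h3b had 282, 256 and 322 CPM in standard replicates 1 to 3 and 195 and 246 CPM in AHARIBO replicates 1 and 2. The groups did not overlap, but AHARIBO replicate 2 lay close to standard replicate 2. Its log2 fold change, AHARIBO minus standard, was -0.38 ± 0.09 (SE; edgeR quasi-likelihood test, Benjamini-Hochberg adjusted p = 0.00581). Hist1h3h had 270, 239 and 303 against 183 and 231 CPM, with a log2 fold change of -0.38 (adjusted p = 0.00488). Hist2h3b, from the cluster on chromosome 3, had 190, 173 and 218 against 127 and 161 CPM, and at -0.42 ± 0.09 (adjusted p = 0.00202) it had the smallest adjusted p of all members. All 12 H3 genes were lower at an adjusted p under 0.05, with log2 fold changes of -0.42 to -0.36.

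H4 showed the same order of libraries. Hist1h4a had 197, 178 and 210 CPM in the standard and 138 and 169 CPM in the AHARIBO libraries, a log2 fold change of -0.35 ± 0.08 (adjusted p = 0.00882). Hist1h4k had 178, 162 and 190 against 122 and 152 CPM (-0.36, adjusted p = 0.00615). The AHARIBO libraries lay below all standard libraries in all 13 H4 genes, and 12 of them were lower, with a class median of -0.34. The distinct Hist2h4 had 102, 99 and 115 against 74.7 and 96.8 CPM (-0.30 ± 0.09, adjusted p = 0.0383). Hist4h4, with 1.06% of its coding windows and 12.6% of all its windows shared, had 73.0, 70.9 and 82.8 against 54.2 and 70.7 CPM, and was the H4 gene that did not pass (-0.27 ± 0.09, adjusted p = 0.0674). Standard replicate 2 and AHARIBO replicate 2 differed by under 1 CPM in Hist4h4.

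Among H2a genes 16 of 18 were lower, with a median log2 fold change of -0.39. Hist2h2aa1 had 157, 140 and 182 CPM in the standard and 104 and 136 CPM in the AHARIBO libraries (-0.41 ± 0.09, adjusted p = 0.00474). Hist2h2ac had 106, 98.1 and 123 against 71.7 and 95.1 CPM (-0.38, adjusted p = 0.00813). The largest difference was that of Hist1h2ah, at 76.2, 69.9 and 90.3 against 48.9 and 68.0 CPM (-0.43 ± 0.10, adjusted p = 0.00549). The groups did not overlap in 12 of the 18 genes. Hist1h2aa, with 5.49, 4.97 and 7.46 against 4.38 and 5.69 CPM, overlapped between methods (-0.22 ± 0.19, adjusted p = 0.578), as did Hist3h2a (-0.27, adjusted p = 0.118), which like the other members outside the naming rule was picked after its values were seen.

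H2b genes were lower in 14 of 18, with a median log2 fold change of -0.38, but the groups overlapped in 16 of 18, and AHARIBO replicate 2 lay above standard replicate 2 in 15. Hist1h2bj, the member of this class with the highest level after Hist2h2bb, had 114, 98.9 and 134 CPM in the standard and 76.2 and 101 CPM in the AHARIBO libraries (-0.38 ± 0.10, adjusted p = 0.0119). Hist2h2be had 18.7, 17.1 and 21.9 against 11.4 and 15.6 CPM. These groups did not overlap, and the log2 fold change of -0.51 ± 0.13 (adjusted p = 0.0102) was the lowest of all 67 members. Hist2h2bb had 120, 110 and 142 against 95.5 and 115 CPM and did not pass (-0.23 ± 0.09, adjusted p = 0.128), nor did Hist1h2ba (-0.26, adjusted p = 0.121), Hist1h2bb (-0.22, adjusted p = 0.181) or Hist3h2ba (-0.33 ± 0.14, adjusted p = 0.178).

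None of the 6 H1 genes passed the test. Hist1h1d, the highest of them in CPM, had 201, 176 and 236 CPM in the standard and 163 and 195 CPM in the AHARIBO libraries (-0.19 ± 0.09, adjusted p = 0.225). Hist1h1a had 159, 141 and 174 against 130 and 158 CPM (-0.13, adjusted p = 0.41), and Hist1h1t had 7.17, 6.29 and 6.50 against 6.65 and 8.19 CPM (0.14 ± 0.16, adjusted p = 0.692). The groups overlapped in all 6. By edgeR 2 of them had an unadjusted p under 0.05, both lower, and by DESeq2 none had. The class median was -0.14, and whether H1 differed from the core classes was not tested.

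**Figure D1:**
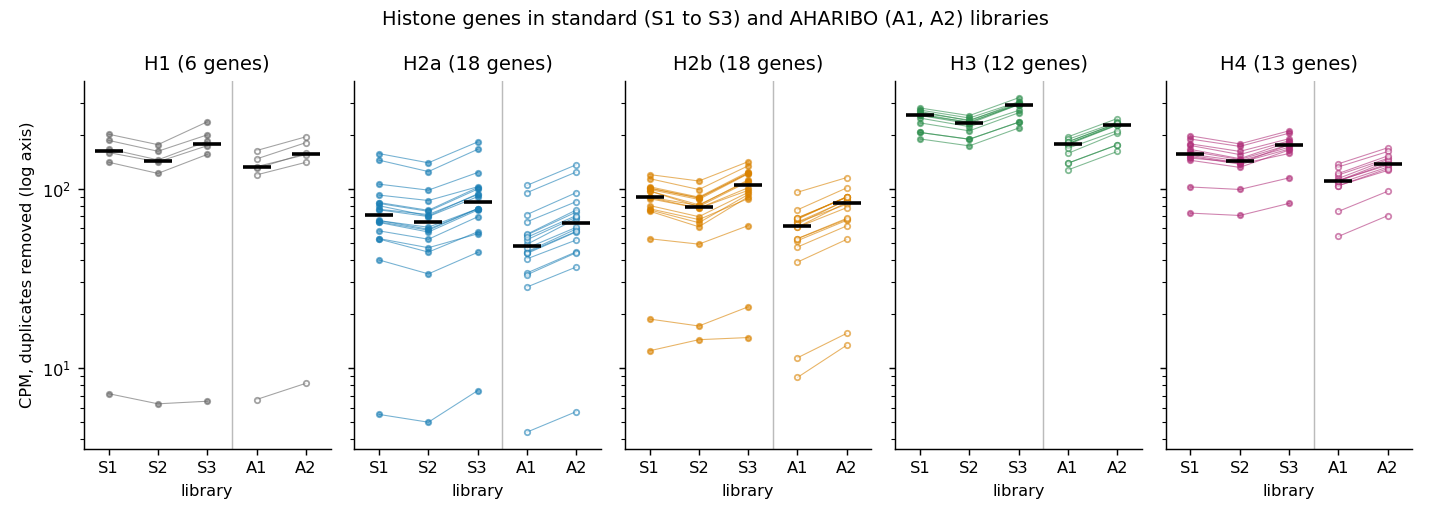
Levels of the 67 histone genes in the 5 libraries, by class (CPM with duplicates removed, log axis; S1 to S3, standard replicates; A1 and A2, AHARIBO replicates). Each line is 1 gene and the black bar is the class median; in H3 the medians were 257, 232 and 295 CPM in the standard and 177 and 227 CPM in the AHARIBO libraries.

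In all, 54 of the 67 members were lower and 0 higher in AHARIBO (edgeR, adjusted p under 0.05), with a median log2 fold change of -0.37. Of all 66972 transcripts tested, 2.24% were lower and 2.27% higher, with a median of 0.00. Among the highest transcripts of 12480 protein-coding genes, 2.55% were lower and 2.59% higher. At an unadjusted p under 0.05, 62 members were lower and 0 higher by edgeR, against 9.24% of all transcripts lower. The AHARIBO libraries lay below all standard libraries in 39 of the 67 members, against 16.5% of all transcripts tested. DESeq2 called 2 members lower, Hist1h4c and Hist1h4j, and 0 higher, against 0.188% of all transcripts lower, and it gave an unadjusted p under 0.05 to 27 members, all lower, against 3.64% of all transcripts lower. The study describes the standard profiling as made on the input of AHARIBO, but the labels do not say which libraries share a lysate. With the replicate number as a block, which treats same-numbered libraries as pairs, 2 members, Hist1h2ac and Hist2h2be, were lower, against 1.23% of all transcripts, and the median log2 fold change of the 67 members was -0.28. The adjusted p-values given for single genes are those without the block. Since members of a class share reads, these counts are not counts of independent genes.

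The number of calls rested on single libraries. AHARIBO replicate 1 was the lowest of the 5 libraries in 66 members and standard replicate 3 the highest in 66. Without AHARIBO replicate 1, 0 members were lower by edgeR, with a median of -0.19, against 0.234% of all transcripts. At an unadjusted p under 0.05, 33 members were lower in that fit, against 5.18% of all transcripts. Without standard replicate 3, 12 were lower with a median of -0.28, against 1.35%. Without standard replicate 1, 23 were lower with a median of -0.38, against 0.68%. Without standard replicate 2 and without AHARIBO replicate 2, 58 and 63 were lower, with medians of -0.45 and -0.55, against 2.23% and 2.97%. The 61 core members all had log2 fold changes below 0 in each of these fits, and where 1 AHARIBO library was left it was taken to vary like the standard ones.

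**Figure D2:**
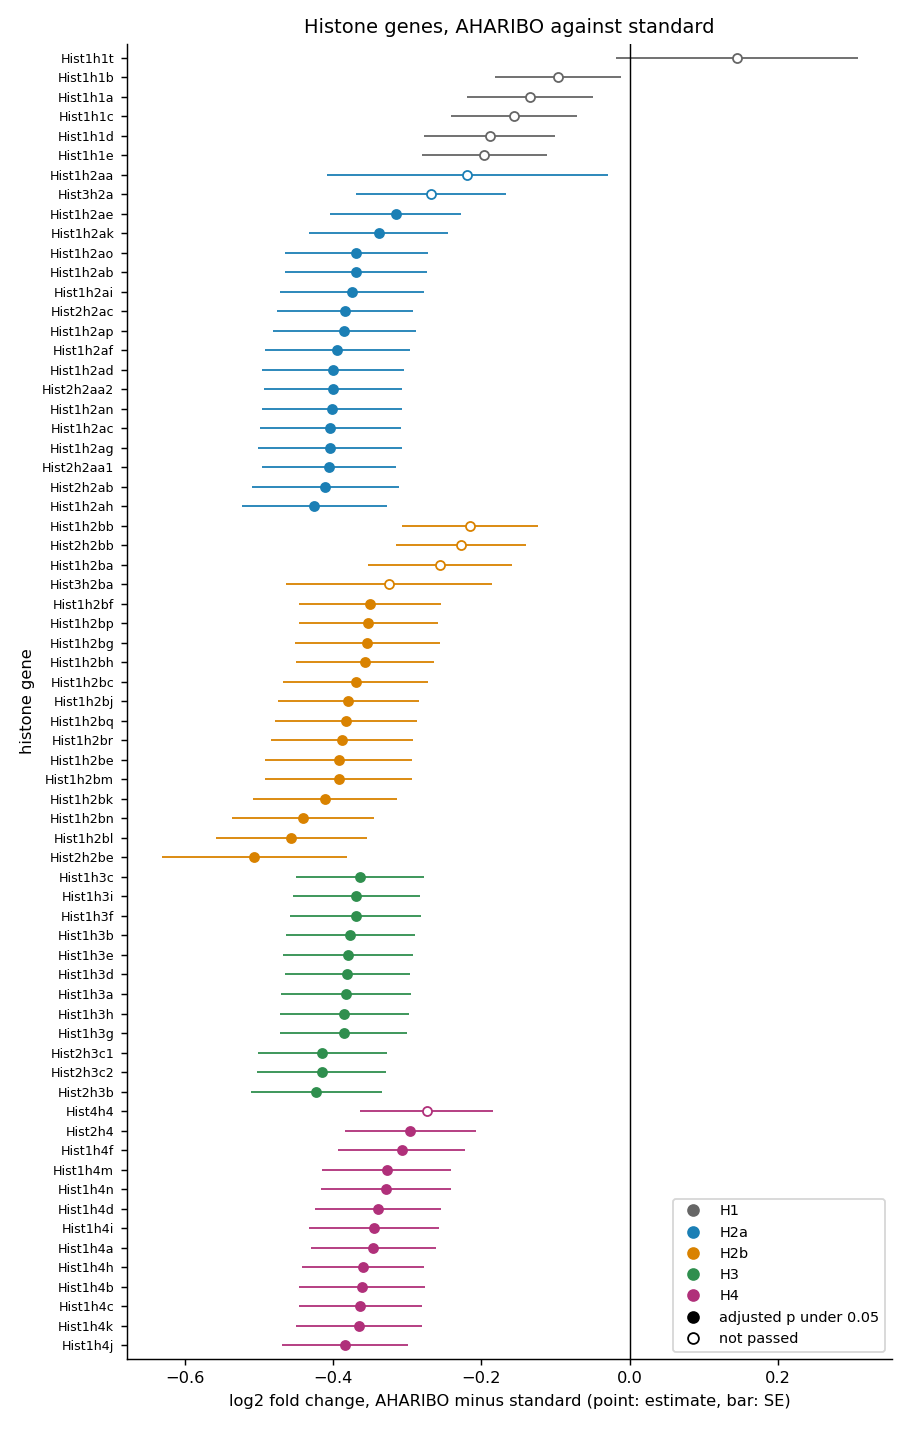
Log2 fold change of each histone gene, AHARIBO minus standard (point, edgeR estimate; bar, SE), ordered within class. Filled points have an adjusted p under 0.05: 54 are filled, all left of 0, and the 6 H1 genes at the top are open.

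The log2 ratio of each AHARIBO library to the standard mean, as a class median, shows how unequal both libraries were. It was -0.60 for AHARIBO replicate 1 and -0.19 for AHARIBO replicate 2 in H2b, -0.61 and -0.205 in H2a, -0.56 and -0.22 in H3, -0.50 and -0.20 in H4, and -0.30 and -0.01 in H1. Over all members the median log2 ratio of AHARIBO replicate 2 was -0.20, that of standard replicate 2 to the same mean was -0.17 and that of standard replicate 3 was 0.17.

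**Figure D3:**
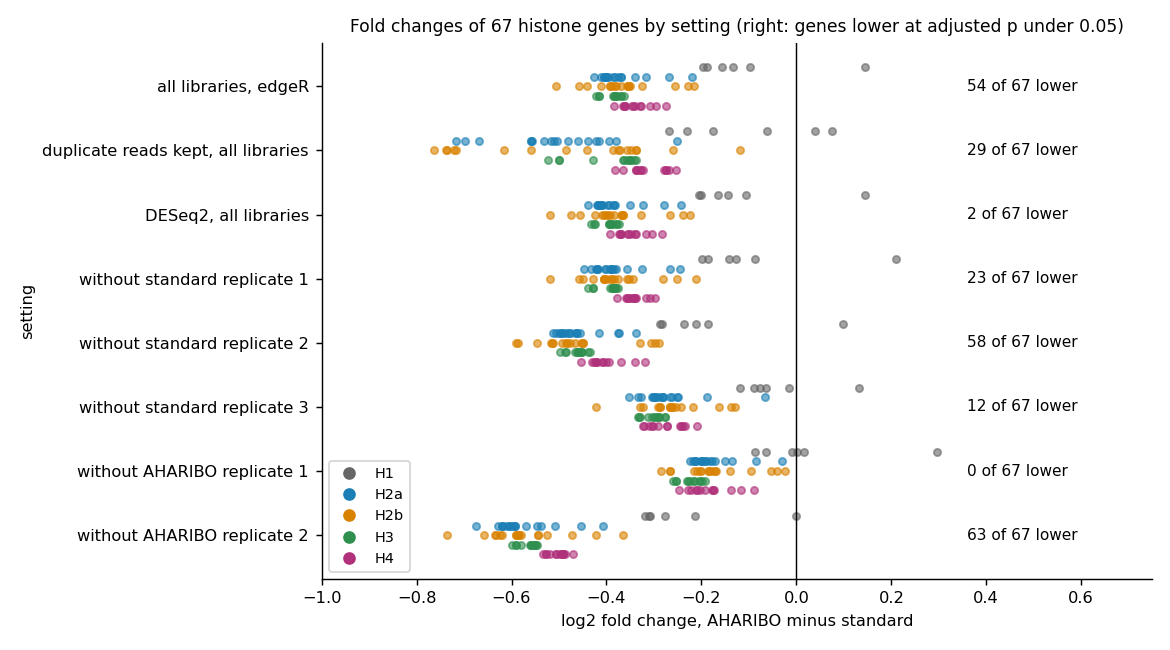
Log2 fold changes of the 67 histone genes, coloured by class, with all libraries (edgeR, edgeR with duplicates kept, DESeq2) and with 1 library left out (edgeR). The numbers on the right count genes lower at an adjusted p under 0.05, from 0 without AHARIBO replicate 1 to 63 without AHARIBO replicate 2.

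Duplicate removal took a larger share of reads from most histone genes than from the median protein-coding gene. Summed over all transcripts, libraries lost 43.3 to 47.7% of their counts. The median of 4979 protein-coding genes with at least 100 reads in every library was 15.8 to 18.8%, with a 99th percentile of 89.1 to 90.1%. The class median in the 5 libraries was 89.0 to 90.9% for H3, 89.2 to 91.5% for H4, 81.8 to 84.5% for H2b, 76.4 to 81.2% for H2a and 61.4 to 66.4% for H1. Among genes listed as replication-independent variants H2afz lost 67.5 to 75.1%, H2afx 63.9 to 69.6%, H3f3b 60.3 to 66.1% and H3f3a 58.9 to 67.6%. These lay near the H1 values, while the other 7 lost 8.18 to 53.2%. Molecular identifiers are not mentioned in the sources used here, and how far the removed reads were PCR copies was not tested. Hist1h1t and Hist3h2ba, with few reads, lost 8.57% and 19.6% in standard replicate 1. After removal Hist1h3b kept 4.94 to 6.13 reads per coding nucleotide, the most of any member, and its class reached 72.9 with duplicates.

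**Figure D4:**
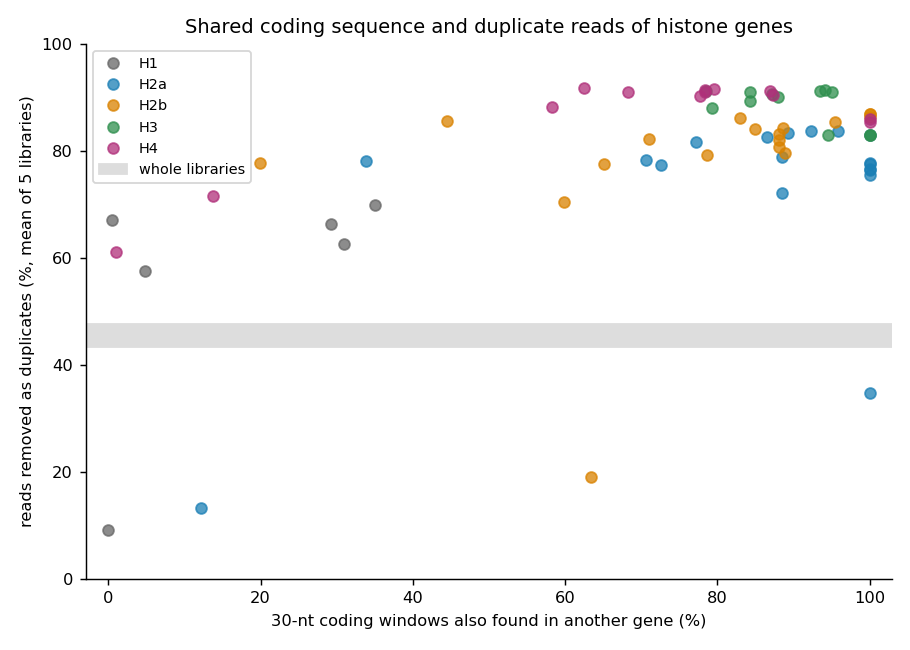
Share of reads removed as duplicates (mean of 5 libraries) against the share of 30-nt coding windows also found in another gene, for the 67 histone genes by class. The grey band is the range of whole libraries (43.3 to 47.7%); most H3 and H4 genes lie near 90%, and genes with few reads such as Hist1h1t lie below the band.

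With duplicates kept, the log2 fold change of Hist1h3b was -0.36 (adjusted p = 0.0467), beside -0.38 after removal. Over all members the median was -0.37 on both scales, but 29 members were lower in place of 54, against 1.51% of all transcripts. By class 13 of 18 H2a, 5 of 18 H2b, 6 of 12 H3, 5 of 13 H4 and 0 of 6 H1 genes were lower. H2a and H2b had medians of -0.51 and -0.41, and some H2b genes fell further than after removal, as Hist1h2bk at -0.72 (adjusted p = 0.0166) beside -0.41. Hist2h2be moved the other way, to -0.37 (adjusted p = 0.0745).

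Summed counts can recount shared reads, both in the 67 members and in the total of all transcripts. As a share of that total, histone genes took 0.860%, 0.773% and 0.968% in the standard and 0.621% and 0.772% in the AHARIBO libraries. The means were 0.867% ± 0.0976 (SD, n = 3) and 0.697% ± 0.107 (SD, n = 2). AHARIBO replicate 2 and standard replicate 2 had nearly the same share. With duplicates kept the shares were 3.95%, 3.50% and 3.68% against 2.53% and 3.08%, and the groups did not overlap. H3 made up the most, at 0.296% ± 0.0319 and 0.232% ± 0.0355 after removal. These sums were not tested.

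The 4 core members that shared under 25% of their coding windows, Hist1h2aa, Hist2h2be, Hist2h4 and Hist4h4, come closest to separate measurements within their classes. Of these 2 were lower, against 2.24% of all transcripts tested. The AHARIBO libraries lay below all standard libraries in 3, against 16.5% of all transcripts, and log2 fold changes were -0.51 to -0.22. Together with Hist1h1a, Hist1h1b and Hist1h1t, which were also under this limit, 2 of 7 were lower with a median of -0.22. Among the 60 members that shared more, 52 were lower with a median of -0.37. The limit was set with the values known, and the difference was not tested.

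AHARIBO captures nascent chains through AHA at methionine codons, and the classes differ in methionines. Counted without the initiator, the proteins of Hist1h1a to Hist1h1e have 0 and that of Hist1h1t has 4. H4 proteins have 1 and H2b proteins 2, 11 of 12 H3 proteins have 2, and 14 of 18 H2a proteins have 0. The H2a class, mostly without an internal methionine, and the H2b class had median log2 fold changes of -0.39 and -0.38, while Hist1h1a to Hist1h1e lay at -0.20 to -0.10. A relation of methionine content to the difference between methods was not tested.

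Of the 11 genes listed as replication-independent variants 2 were lower and 0 higher, with a median log2 fold change of -0.26, against 2.55% of protein-coding genes lower. At an unadjusted p under 0.05, 8 were lower, against 9.24% of all transcripts. H2afz, the most abundant, had 175, 166 and 189 CPM in the standard and 145 and 162 CPM in the AHARIBO libraries (-0.20 ± 0.08, adjusted p = 0.136). H2afx, which marks DNA breaks when phosphorylated, had 153, 147 and 158 against 108 and 128 CPM (-0.37 ± 0.08, adjusted p = 0.0035). It shares windows with H2a genes, and whether its mRNA is replication-independent was not examined. H1fx, a linker variant, had 30.9, 27.8 and 28.1 against 19.5 and 22.6 CPM (-0.47 ± 0.10, adjusted p = 0.00292). The AHARIBO libraries lay below all standard libraries in 9 of the 11, against 16.5% of all transcripts, and without AHARIBO replicate 1 none passed.

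Of 19 genes found, from a list of 20, that process, translate or degrade histone mRNA, 1 was higher and 0 lower, with a median of 0.02, against 2.59% of protein-coding genes higher. At an unadjusted p under 0.05, 2 were higher and 2 lower, against 9.48% and 9.24% of all transcripts. Both AHARIBO values exceeded every standard value in 4 genes and were under every standard value in 3, against 17.3% and 16.5% of all transcripts, so these counts lie near the background. Upf1, the RNA helicase of mRNA decay, had -0.14 (adjusted p = 0.323) and Snrpb, a core protein of small nuclear RNPs, -0.24 (adjusted p = 0.0731). Casp8ap2 (FLASH), which acts in the 3′ processing of histone mRNAs, had 13.6, 11.4 and 12.4 CPM in the standard and 20.7 and 14.1 CPM in the AHARIBO libraries (0.50 ± 0.13, adjusted p = 0.0165). It was highest in AHARIBO replicate 1, and without that library its log2 fold change was 0.18 (adjusted p = 0.771).

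Of 22 histone chaperones and assembly factors 1 was higher and 0 lower, with a median of 0.08, against 2.59% of protein-coding genes higher. At an unadjusted p under 0.05, 5 were higher and 0 lower, against 9.48% of all transcripts higher. Both AHARIBO values exceeded every standard value in 10 of the 22 and were under every standard value in 0, against 17.3% of all transcripts in the first way. Nasp, a chaperone of H1 and H3-H4, had 0.11 (adjusted p = 0.467), and Nap1l1, an H2A-H2B chaperone, had 0.01 (adjusted p = 0.956). Atrx, a chromatin remodeller that works with Daxx to deposit H3.3, had 19.6, 20.4 and 17 CPM in the standard and 33.2 and 22.7 CPM in the AHARIBO libraries (0.55 ± 0.11, adjusted p = 0.00197), and without AHARIBO replicate 1 its value was 0.24 (adjusted p = 0.553). For Atrx and Casp8ap2 AHARIBO replicate 1 thus lay further from the standard libraries than AHARIBO replicate 2, as for the core histones in the opposite direction.

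Besides the protein-coding genes, 3 transcripts with histone symbols are annotated as pseudogenes and were not counted as members. Hist1h2al had 118.8, 104 and 136 CPM in the standard and 76.9 and 102 CPM in the AHARIBO libraries. It shares 82.6% of its 30-nt windows with other genes, so reads from those windows cannot be assigned to it by sequence, while 17.4% of its windows are its own.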

How the data were processed

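Ribosome profiling reads of 5 mESC libraries were processed by the authors, who trimmed them with Trimmomatic v0.36, removed rRNA and tRNA reads, aligned the rest with STAR to Gencode M17 transcripts of GRCm38.p6 and deposited counts per transcript with and without duplicates. How reads with several alignments were counted is not given in the sources used here. From these counts CPM were computed with TMM factors, transcripts with 1 CPM in at least 1 library were kept, and the methods were compared with edgeR 4.0.16 (quasi-likelihood test; R 4.3.3), adjusted p under 0.05 by Benjamini-Hochberg over all transcripts, with DESeq2 1.42.0 as an alternative. Genes, coordinates and sequences came from Gencode M21; 99.8% of 135276 transcripts matched. Counts summed over transcripts were 6403651 to 11150527 per library. The fit was tested on simulated data with larger changes than those of the histone genes and with transcripts that share no reads. That test therefore does not bear on the histone calls. The members, gene lists and tests were chosen with earlier results of these data known. Named were, per class, the 4 genes of highest mean CPM, the 8 largest falls among called members, 3 germ-line forms, and in each other list the 2 highest genes and those called, at most 4. Columns of per-sample values left unused numbered 0. The alternatives were the test, scaling, filter, duplicates, transcript choice, thresholds, window length, a replicate block and leaving out each library.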

Additional observations from a re-analysis of the deposited data

How the results depend on the processing

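The median log2 fold change of the 67 histone genes stayed below 0 in all settings run, from -0.55 to -0.19, but the number of members lower in AHARIBO, 54 by edgeR, ranged widely. It was 2 with DESeq2, 29 with duplicates kept, 0 at a log2 fold change past 1.5 with adjusted p of 0.01 or less, and 0 to 63 when a library was left out. It stayed within 1.5 times of 54 with library-size scaling (53), no low-count filter (55), at least 10 reads in every library of a method (54) and 1 transcript per gene (50). With the longest transcript per gene it was 54. No member was higher in any setting. The share of reads differed by -0.17 percentage points between methods, by -0.904 with duplicates kept and by -0.602 with protein-coding reads as denominator, with the value ranging from -0.246 to -0.0944 when a library was left out. With a replicate block, 2 of 67 members were lower, against 1.23% of all transcripts. Deviations of same-numbered libraries correlated at 0.038 and -0.186. With 2 AHARIBO libraries their deviations mirror each other, so this check does not settle whether the numbers pair the libraries.

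Of the variants, histone mRNA factors and chaperones together 2 were lower and 2 higher. The lower count was 1 with DESeq2, 1 with the replicate block and 0 to 5 when a library was left out. The higher count was 0 with DESeq2, 5 with library-size scaling, 0 with duplicates kept and 0 to 3 when a library was left out. Signs turned in values near 0 when a library was left out: the log2 fold change of Hist1h1a ranged from -0.277 to 0.001, that of Hist1h1b from -0.213 to 0.017 (0.039 with duplicates kept), that of Hist1h1t from -0.001 to 0.296 and that of Nap1l1 from -0.015 to 0.044 (-0.012 without standard replicate 2). Windows of 28 or 25 nt gave 87.2% and 88.1% of coding windows shared. The cause of these changes was not tested. Shared reads and AHARIBO at 2 libraries limit the precision.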
